A study of Mus musculus with 10 samples.

Results

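The genes described here are 9 genes of fatty acid synthesis, read from a mouse RNA-seq series that lists 24391 genes. They were chosen by symbol: Acly, Acss2, Acaca, Fasn, Elovl6, Scd1, Scd2, Me1 and Srebf1. The study took 5 cell lines (G4314, G9351, G9488, G9529, plus G9577) from mouse small cell lung cancer (SCLC), a neuroendocrine lung tumour, and asked which genes depend on the oncogene MYCN. By the labelled genotype the lines carry altered Rb and p53, a TRE-MYCN transgene that responds to tetracycline-type drugs, and LSL-RTTA, the activator that needs doxycycline; both conditions share all of these alleles. The MYCN-on libraries, 1 per line, came from cells kept in doxycycline, and the MYCN-off libraries, 1 per line, from cells of the same lines kept 4 days without it. The Cre that opens LSL-RTTA, and whether each line is a clone, are not given in the sources used here. Doxycycline was given to no culture that lacks the transgene, so what the drug does and what MYCN does cannot be told apart.

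Cells that divide need fatty acids for membranes, and can make them from carbon that leaves the mitochondrion as citrate. ATP-citrate lyase (Acly) cleaves citrate to acetyl-CoA in the cytosol, and acetyl-CoA synthetase (Acss2) makes acetyl-CoA from free acetate. Acetyl-CoA carboxylase 1 (Acaca) turns acetyl-CoA into malonyl-CoA, fatty acid synthase (Fasn) joins these units to palmitate with NADPH as the reductant, the elongase Elovl6 lengthens the chain, and the stearoyl-CoA desaturases Scd1 and Scd2 put in the first double bond. Malic enzyme (Me1) yields part of the NADPH, and Srebf1 encodes SREBP1, the membrane-bound factor that is cut free to switch these enzymes on.

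Scd1 and Scd2 catalyse the same step and lie in one cluster of desaturase genes on chromosome 19, so their sequences are shown first, because the counts of the pair depend on how well reads tell them apart. Below are 60 coding bases of each transcript (GENCODE M21; bases 145 to 204 of the Scd1 and 154 to 213 of the Scd2 coding sequence, 5′ to 3′), with the 6 bases at which they differ in capitals.
Scd1: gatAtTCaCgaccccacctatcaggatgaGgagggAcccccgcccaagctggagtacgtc
Scd2: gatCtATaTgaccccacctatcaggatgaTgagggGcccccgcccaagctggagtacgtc
Over the aligned coding sequence, 965 of 1068 bases, or 90.4%, were identical. The longest run shared by the whole transcripts was 147 bases. Of the 50-base stretches of the Scd1 transcript, 3.03% also occurred in Scd2, so most reads of that length can be assigned to one of the genes.

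The 250 bases before the start are also shown for 3 members. They are the synthase Fasn and the citrate enzyme Acly, which both rose, and the acetate enzyme Acss2, which was not called and had the opposite sign. The sequences are RefSeq's for build GRCm38.p6, read 5′ to 3′ on the gene's own strand (Fasn chr11:120824548-120824797, minus; Acly chr11:100528001-100528250, minus; Acss2 chr2:155517793-155518042, plus). Capitals mark CCAAT, the box bound by NF-Y, and GGGCGG, the GC box bound by Sp1, on either strand.
Fasn: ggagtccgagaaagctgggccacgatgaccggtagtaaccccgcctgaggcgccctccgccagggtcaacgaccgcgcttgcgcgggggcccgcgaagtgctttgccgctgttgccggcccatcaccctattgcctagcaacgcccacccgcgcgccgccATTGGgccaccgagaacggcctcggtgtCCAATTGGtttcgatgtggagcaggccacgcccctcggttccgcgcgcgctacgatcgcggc
Acly: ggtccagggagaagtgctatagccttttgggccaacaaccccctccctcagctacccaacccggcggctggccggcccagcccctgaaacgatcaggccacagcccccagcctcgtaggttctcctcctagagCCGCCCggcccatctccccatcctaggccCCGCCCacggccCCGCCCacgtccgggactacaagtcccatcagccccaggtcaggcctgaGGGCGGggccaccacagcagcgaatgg
Acss2: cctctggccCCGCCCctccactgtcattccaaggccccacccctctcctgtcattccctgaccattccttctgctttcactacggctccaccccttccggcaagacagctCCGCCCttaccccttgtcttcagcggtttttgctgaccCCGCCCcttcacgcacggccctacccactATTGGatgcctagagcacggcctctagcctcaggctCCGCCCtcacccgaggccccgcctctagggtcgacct
The Fasn window held 3 CCAAT matches, of which the pair at 62 to 55 bases before the start overlap on opposite strands, and no GGGCGG. The Acly window held 4 GGGCGG matches and no CCAAT, while that of Acss2 held 1 CCAAT and 4 GGGCGG. RefSeq windows were matched for 7 of the 9 members, 10 windows in all; Scd1 and Scd2 had none in the table used. CCAAT was in 5 of the 10, against 33.8% of all 32851 windows of this length, and GGGCGG in 5 of the 10, against 32.7%. Among the members called higher, CCAAT was found for Fasn alone and GGGCGG for Acly alone, and the windows of Acaca and Elovl6 held neither. The other matching windows belonged to Acss2, Me1 and Srebf1, which were not called. Me1 and Srebf1 had more than 1 window each. CACGTG, the E-box letters bound by MYC proteins, and TCACNCCAC, an SRE-type sequence bound by SREBPs, were searched on both strands and were in 0 of the 10, against 6.02% and 1.05% of all windows. A match is a description of letters, and a missing match says only that they are not in this window.

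Libraries held 9586465 to 11960074 counts, with 15250 to 17686 genes detected. Mycn, the targeted gene, had 495.8 to 976.6 CPM (counts scaled to library size with TMM factors) in MYCN-on libraries, against 27.6 to 188.7 CPM in MYCN-off libraries, and rose by 2.86 on the log2 scale (SE 0.38, adjusted p 0.00421 in edgeR's quasi-likelihood test). The line G9577 stood apart and goes against the label of a neuroendocrine tumour line. Its 12 neuroendocrine markers summed to 224.3 CPM on and 185.5 CPM off, against 3615 to 4432 on and 5661 to 7566 off in the other 4 lines, where this sum was thus lower with MYCN on. Its 12 mesenchymal markers summed to 4304 CPM on and 19036 CPM off, against 9.41 to 28.6 and 13.9 to 20 CPM. Of the markers of adipocytes, which also make much fat, Adipoq, Plin1 and Fabp4 were at 0 to 0.294 CPM in every library. Summed adipocyte markers came to 6.32 to 11.4 CPM on and 7.31 to 18 CPM off over all 5 lines. Most of this sum was the marker Lipe, at 6.22 to 10.9 CPM on and 7.12 to 17.9 CPM off. Alveolar type 2 and club cell markers summed to 61.4 to 98.5 CPM on and 117.5 to 155.9 CPM off in the 4 lines, and to 49.9 CPM on and 410.3 CPM off in G9577. Macrophage and leukocyte markers came to 3.85 to 5.99 CPM on and 1.72 to 5.57 CPM off in the 4 lines, and to 5.87 CPM on and 69 CPM off in G9577. Endothelial markers came to 0.837 to 4.21 CPM on and 1.47 to 11.1 CPM off in the 4 lines, and to 35.7 CPM on and 133.5 CPM off in G9577. The part of these markers in the results below was not tested. In bulk libraries, fewer cells of a type and less RNA per cell cannot be told apart. Results are given with all 5 lines. Where the call of a member, or of a list gene named here, differed without G9577, that fit is given too.

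Of the 9 genes, 6 rose with MYCN on, none fell and 3 were not called, at an adjusted p under 0.05 in edgeR's test. At an unadjusted p under 0.05, 1 member was lower (Acss2), and DESeq2 also called 1 lower. Acly, Acaca, Fasn, Elovl6, Scd1 and Scd2 rose, and these are the steps from citrate to a desaturated chain. The acetate enzyme Acss2, the NADPH enzyme Me1 and the regulator Srebf1 were not called. Among all 12835 genes tested, 31.0% were called, 15.3% higher and 15.6% lower. The median log2 change of the 9 members was 0.90, beside -0.08 for all genes tested. In 4 members, Acly, Acaca, Scd2 and Elovl6, every MYCN-on library lay above every MYCN-off library, which held for 6.35% of all genes tested; no member had every MYCN-on library below every MYCN-off library, as 2.88% of genes did. In 5 members the MYCN-on library was the higher one in all 5 lines (20.9% of genes tested), and in 1, Acss2, the lower one in all 5 (23.2%). With the line left out of the model, only Acly (adjusted p 0.0304) and Elovl6 (adjusted p 0.0402) were still called.

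**Figure D1:**
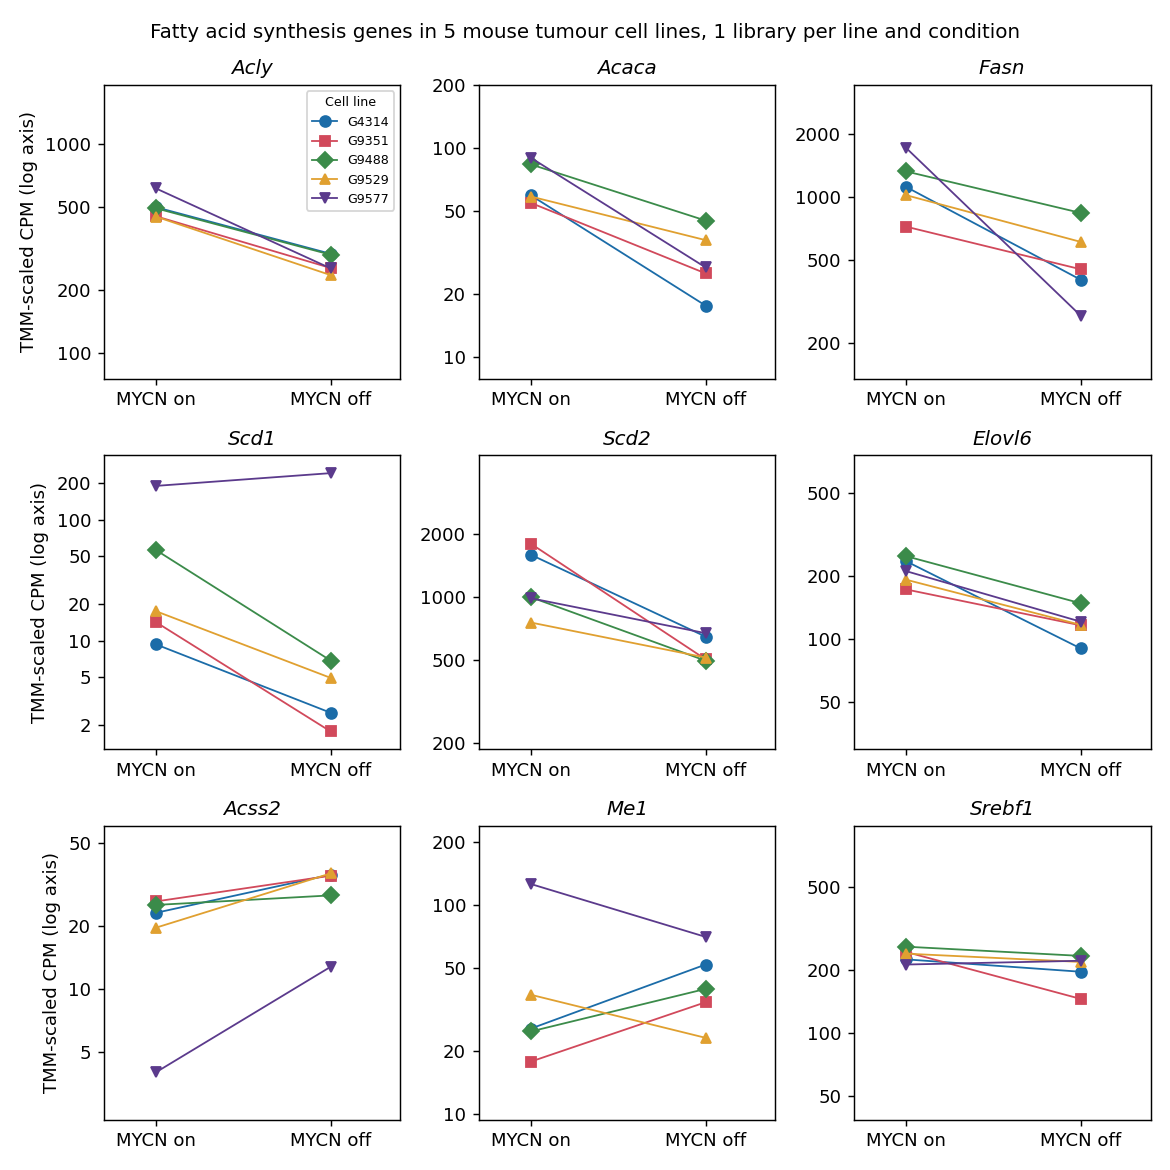
Level of each of the 9 genes in each library, as TMM-scaled CPM on a log axis, with MYCN on at the left and MYCN off at the right of each panel and a line joining the libraries of one cell line. Acly, Acaca, Scd2 and Elovl6 have no overlap between the conditions, and G9577 lies apart in Scd1, Acss2 and Me1.

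Acly (mm9 chromosome 11, 100337666 to 100389314, minus strand) rose in each line, within the narrowest range of changes by line among the 9. It had 497.0, 449.9, 491.3, 448.1 and 611.2 CPM in the MYCN-on libraries of G4314, G9351, G9488, G9529 and G9577, against 297.7, 254.6, 294.7, 235.4 and 253.6 CPM in their MYCN-off libraries. The lowest MYCN-on library was well above the highest MYCN-off library. Its mean was 499.5 ± 66.4 CPM on and 267.2 ± 27.6 CPM off (SD, n = 5 lines each), so it rose 1.86-fold (log2 change 0.90, SE 0.12, adjusted p 0.00431 in edgeR's test). The change of single lines ran only from 0.74 to 1.27, and the call held with each line left out in turn, with adjusted p from 0.00238 to 0.0263.

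Acss2 (chromosome 2, 155343779 to 155388479, plus strand), the other source of cytosolic acetyl-CoA, had lower values with MYCN on in all 5 lines but missed the threshold. Levels were 23.2, 26.3, 25.3, 19.7 and 4.01 CPM with MYCN on in the same order of lines, against 35.3, 34.9, 28.1, 35.8 and 12.8 CPM with MYCN off. The conditions overlapped only through G9577, which was lowest in both. The log2 change was -0.71 (SE 0.24) (adjusted p 0.0559 in edgeR's test). Without G9577 it was -0.49 (SE 0.16) with an adjusted p of 0.0491, and with all lines it was also called by DESeq2 (adjusted p 0.00923), with RLE scaling (0.0429) and with library size alone (0.0441). Of its exon bases, 113 are shared with Acss2os, a gene annotated on the same stretch, and counting took no account of strand. In levels per length (RPKM), Acly averaged 112.8 RPKM on and 60.4 RPKM off, and Acss2 6.96 RPKM on and 10.4 RPKM off.

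Acaca (chromosome 11, 84008940 to 84215153, plus strand), the gene of the committing step, rose 2.35-fold. It had 59.2, 54.5, 83.3, 58.5 and 89.5 CPM in the MYCN-on libraries of G4314, G9351, G9488, G9529 and G9577, against 17.6, 25.1, 44.9, 36.2 and 26.8 CPM in the MYCN-off libraries. No MYCN-off library reached the lowest MYCN-on library. The log2 change was 1.23 (SE 0.20, adjusted p 0.00675 in edgeR's test), from 0.69 in G9529 to 1.74 in G4314, and it was called with each line left out. Acacb, the isoform at the mitochondrial surface that restrains fatty acid oxidation, was not called, with a log2 change of -0.27 (SE 0.53, adjusted p 0.712). Per length, Acacb was at 1.66, 1.56, 2.45, 2.95 and 0.231 RPKM on, against 1.53, 2.3, 1.41, 1.91 and 1.88 RPKM off. G9577 was the only line in which Acacb was far below its MYCN-off level, at 21 counts on against 143 counts off.

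Fasn (chromosome 11, 120667272 to 120685861, minus strand) was higher with MYCN on in each of the 5 lines, but by very different amounts. Levels were 1121, 723.9, 1330, 1024 and 1723 CPM in the MYCN-on libraries, against 403.5, 452.8, 842.3, 612.2 and 271.6 CPM in the MYCN-off libraries, in the same order of lines. G9577 had both the highest MYCN-on and the lowest MYCN-off level, and the conditions overlapped because G9351 on was below G9488 off. The log2 change was 1.47 in G4314 and 2.66 in G9577, and between 0.66 and 0.74 in the other 3 lines. Over all lines it was 1.22 (SE 0.31), 2.34-fold (adjusted p 0.0258 in edgeR's test). The call was lost without G4314 (adjusted p 0.0936) and without G9351 (0.0565); without G9577 the change was 0.90 (SE 0.17, adjusted p 0.00861).

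Elovl6 (chromosome 3, 129235304 to 129341411, plus strand), which takes palmitate to stearate, rose 1.79-fold. It was at 236.4, 173.3, 250, 192.9 and 212.0 CPM in the MYCN-on libraries, against 90.5, 116.7, 148.8, 117.3 and 121.5 CPM in the MYCN-off libraries of the same lines. The conditions did not overlap. Its log2 change was 0.84 (SE 0.14, adjusted p 0.00714 in edgeR's test), called with each line left out; G4314 changed by 1.38 and the other 4 lines by 0.57 to 0.80.

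**Figure D2:**
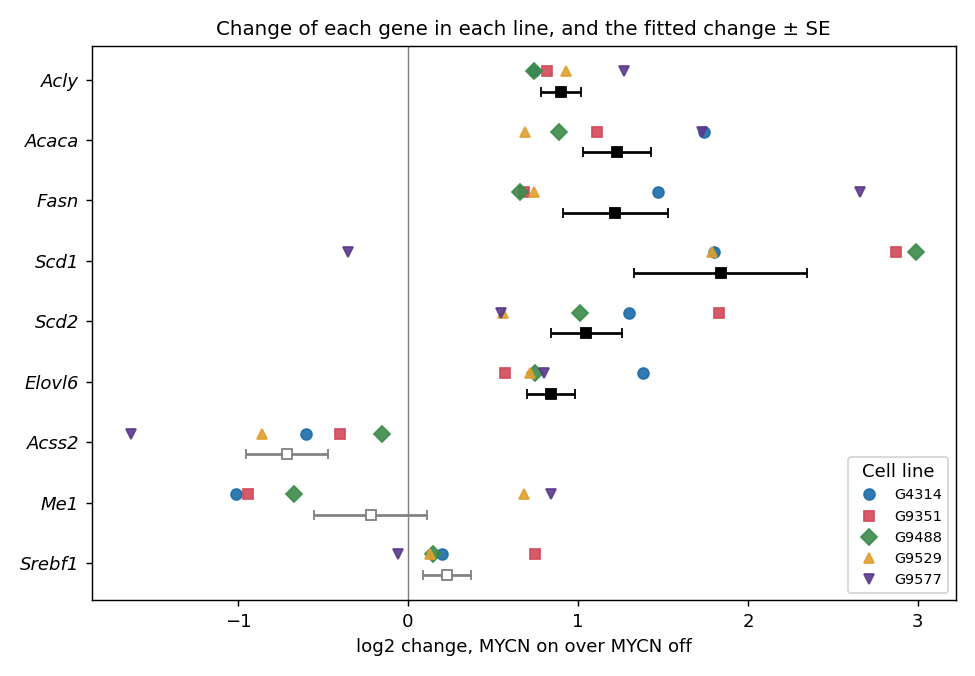
Change of each gene in each line (coloured symbols) as log2 of MYCN on over MYCN off, with the fitted change and its SE below them (squares with bars; filled where the adjusted p is under 0.05, open where it is not). Changes of Acly span 0.74 to 1.27, those of Fasn 0.66 to 2.66, and Scd1 has 4 lines at 1.79 or more with G9577 at -0.35.

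The desaturases differed in level far more than in direction. Scd2 (chromosome 19, 44368166 to 44381352, plus strand) was the highest of the 9 per length in both conditions, and Scd1 (chromosome 19, 44468940 to 44482199, minus strand) was low in every line but G9577. Scd2 stood at 1593, 1798, 998.5, 755.7 and 987.6 CPM with MYCN on, against 647.2, 504.1, 496.5, 514.2 and 672.4 CPM with MYCN off. Every MYCN-on library was above every MYCN-off library. Scd2 rose by 1.05 (SE 0.21) on the log2 scale, 2.07-fold (adjusted p 0.0125 in edgeR's test), and was called with each line left out, at an adjusted p of up to 0.0493 (without G4314). Lines differed, from 0.55 in G9577 and 0.56 in G9529 to 1.83 in G9351.

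Scd1 had 9.31, 14.2, 55.9, 17.5 and 189.6 CPM in the MYCN-on libraries of G4314, G9351, G9488, G9529 and G9577, against 2.54, 1.78, 6.85, 4.93 and 241.6 CPM in the MYCN-off libraries. Within 4 lines the MYCN-on library was the higher one, by 1.79 to 2.99 on the log2 scale, while in G9577 both were high and the MYCN-on one was lower by a log2 change of -0.35. Over all 5 lines the fitted log2 change was 1.84 (SE 0.51, adjusted p 0.0331), and without G9577 it was 2.44 (SE 0.28, adjusted p 0.00212). With any of the other lines left out the call was lost, with adjusted p of 0.0934 without G4314, 0.0983 without G9351, 0.0768 without G9488 and 0.0732 without G9529.

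Per length, Scd2 exceeded Scd1 in every library. Scd1 made up 0.654%, 0.883%, 5.93%, 2.54% and 17.8% of the summed RPKM of the pair with MYCN on, against 0.44%, 0.397%, 1.53%, 1.07% and 28.8% with MYCN off. The Scd1 share was thus higher with MYCN on in 4 lines and lower in G9577. The log2 ratio of Scd2 over Scd1 averaged 5.10 on and 5.93 off, and the difference of on minus off was -0.83 ± 1.09 (SD, n = 5 lines). An exact two-sided sign-flip permutation test gave p = 0.188, where 5 pairs cannot go below 0.0625. The pair together summed to 294.1, 332.8, 194.7, 142.3 and 220.4 RPKM on, against 119.2, 92.8, 92.5, 95.3 and 173.3 RPKM off. Only in G9577 did Scd1 add more than a small part to that sum. Scd3, the neighbouring desaturase, was not called (log2 change -0.37, SE 0.27, adjusted p 0.317), and Scd4 was too low to test, at up to 0.888 CPM on and 1.08 CPM off.

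**Figure D3:**
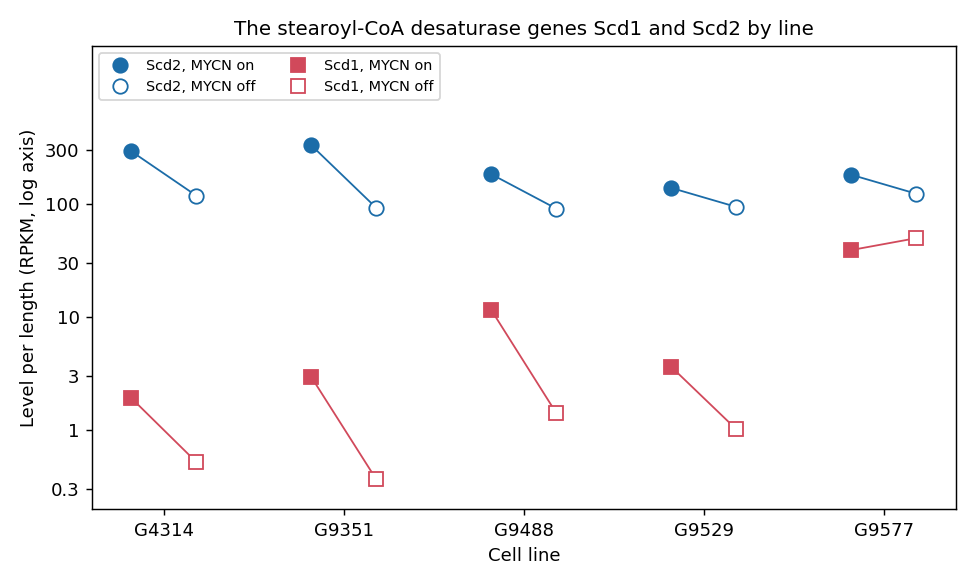
Level per length (RPKM, log axis) of Scd2 (circles) and Scd1 (squares) in each line, MYCN on filled at the left and MYCN off open at the right. Scd2 lies above Scd1 in all 10 libraries, and the gap is narrowest in G9577, at 181.2 against 39.2 RPKM on and 123.3 against 49.9 RPKM off.

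Me1 (chromosome 9, 86474970 to 86589947, minus strand), a source of cytosolic NADPH, had no common direction. It had 25.6, 17.8, 24.8, 37.1 and 125.6 CPM in the MYCN-on libraries, against 51.8, 34.2, 39.6, 23.1 and 70.2 CPM in the MYCN-off libraries. MYCN-on values were lower in G4314, G9351 and G9488, by log2 changes of -1.01, -0.94 and -0.67, and higher in G9529 and G9577, by 0.68 and 0.84. The fitted change was -0.22 (SE 0.33, adjusted p 0.622 in edgeR's test). The other malic enzymes were read after their values were seen: Me3, a mitochondrial form, fell by 1.28 on the log2 scale (SE 0.28, adjusted p 0.0154), a call lost without G4314 (0.0516) and without G9351 (0.0551), and Me2 was not called (log2 change 0.65, SE 0.36, adjusted p 0.194).

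Srebf1 (chromosome 11, 60012591 to 60034106, minus strand) was not called, whereas 6 enzymes rose. It stood at 224.7, 243.8, 258.4, 239.3 and 212.3 CPM in the MYCN-on libraries, against 196.1, 145.4, 233.5, 218.4 and 221.3 CPM in the MYCN-off libraries. The conditions overlapped, and only G9351 differed by more than 0.20 on the log2 scale, at 0.75. The fitted change was 0.23 (SE 0.14, adjusted p 0.227 in edgeR's test), and 0.31 (SE 0.13, adjusted p 0.0972) without G9577. The counts take the 2 forms SREBP1a and SREBP1c together, and mRNA does not show how much protein was cut and active. Srebf2, which encodes the sterol-directed relative SREBP2, was at 419.6 ± 62.6 CPM on and 412.3 ± 110.3 CPM off (SD, n = 5 lines each; log2 change 0.06, adjusted p 0.721).

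Ranked by level per length, the 9 genes kept much of their order. With MYCN on, Scd2 led at 225.0 ± 81.6 RPKM, followed by Fasn at 119.2 ± 37.4, Acly at 112.8 ± 15, Srebf1 at 54.8 ± 4.14 and Elovl6 at 35.8 ± 5.25 RPKM (SD, n = 5 lines). Me1 at 12.9 ± 12.6, Scd1 at 11.8 ± 15.8, Acaca at 7.64 ± 1.78 and Acss2 at 6.96 ± 3.23 RPKM came last. Fasn overlapped in range with both Scd2 and Acly, and the last 4 overlapped among each other. Me1 and Scd1 also reached into the range of Elovl6. With MYCN off, Scd2 led at 104.0 ± 15.7 RPKM, then Acly at 60.4 ± 6.23, Fasn at 52 ± 22.1, Srebf1 at 47.2 ± 8.12 and Elovl6 at 20 ± 3.48 RPKM. The last 4 were Me1 at 12.2 ± 5.04, Scd1 at 10.7 ± 22, Acss2 at 10.4 ± 3.45 and Acaca at 3.33 ± 1.17 RPKM. Off libraries thus had Acly, Fasn and Srebf1 in overlapping ranges. Among them Me1 reached into the range of Elovl6, and Scd1 into those of Elovl6, Srebf1 and Fasn. The place of Scd1 rests on G9577, at 39.2 RPKM on and 49.9 RPKM off. In the other 4 lines Scd1 was at 1.92 to 11.5 RPKM on, and at 0.368 to 1.42 RPKM off, where it was below both Acss2 and Acaca in each line. Among the 12835 genes tested, Scd2 ranked 160 with MYCN on and 487 with MYCN off by mean RPKM, Fasn 496 and 1508, and Acly 547 and 1221. Acaca ranked 8250 on and 10725 off.

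Around these enzymes, 10 lists of neighbouring pathways were read in the same fit, against the background of 15.3% of all genes called higher and 15.6% called lower. Of the genes that supply carbon, 13 were tested: Dlat, a subunit of pyruvate dehydrogenase, rose (log2 change 0.56, adjusted p 0.0176), and the pyruvate carrier subunit Mpc2 (-0.53, 0.0377) and the pyruvate dehydrogenase kinase Pdk2 (-1.41, 0.0297) fell. Each of these 3 calls was lost without G9351 (adjusted p 0.0642, 0.0898 and 0.0511) and without G9529 (0.0559, 0.0945 and 0.0607), those of Mpc2 and Pdk2 also without G4314 (0.119 and 0.0776), and those of Dlat and Mpc2 also without G9488 (0.0517 and 0.119). Slc25a1, the carrier that exports citrate, was not called, at 50.8 ± 14.2 CPM on and 56 ± 36.4 CPM off (SD, n = 5 lines each; log2 change 0.06, adjusted p 0.862). The list's median log2 change was 0.36, beside -0.08 for all genes tested.

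Genes that supply NADPH had 7 higher and 1 lower of 14 tested, with a median log2 change of 0.63. The largest changes were in enzymes of the folate cycle, which carry carbon. How much NADPH they yield, and in which compartment, was not measured. Mthfd2 had 358.9 ± 97.1 CPM on and 97.7 ± 43.1 CPM off (SD, n = 5 lines each; log2 change 1.97, SE 0.35, adjusted p 0.00865), and Aldh1l2 168.2 ± 87.8 CPM on and 46.4 ± 16.9 CPM off (1.74, SE 0.23, adjusted p 0.00419). Mthfd1, the cytosolic folate enzyme, rose by 1.18 (SE 0.21, adjusted p 0.00888) and Pgls, of the pentose phosphate pathway, by 0.86 (SE 0.13, adjusted p 0.00578). These 4 were called with each line left out. G6pdx, the first enzyme of the pentose phosphate pathway, rose by 0.61 (SE 0.18, adjusted p 0.0408) and lost its call without G4314 (0.0918), G9351 (0.0559), G9488 (0.0992) or G9529 (0.122).

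Other desaturases, elongases and chain-lengthening enzymes had 3 higher and 1 lower of 16 tested, median 0.20. Fads2, the first desaturase of polyunsaturated chains, rose by 0.79 (SE 0.13, adjusted p 0.00688), and Elovl4, an elongase of very long chains, by 0.98 (SE 0.16, adjusted p 0.00641); both were called with each line left out. Hsd17b12, the ketoreductase of elongation, rose by 0.56 (adjusted p 0.0334), with its call lost without G4314 (0.098), G9351 (0.0973), G9488 (0.0702) or G9529 (0.0552), and Cyb5r3, which feeds electrons to desaturases, fell by 0.58 (adjusted p 0.0202; 0.0569 without G9351). Fads1 was not called (log2 change 0.34, adjusted p 0.16), but was without G9577 (0.0113), and Elovl5 was not called (0.25, adjusted p 0.298). Without G9577 this list had 5 higher, and without G9488 2 lower. Mitochondria have a fatty acid synthesis of their own, whose list had 2 higher and none lower of 11 in edgeR's test, median 0.27, with 0 lower at an unadjusted p under 0.05 and 0 lower in DESeq2. They were the reductase Mecr (log2 change 0.80, adjusted p 0.028; 0.0939 without G9351 and 0.0868 without G9529) and the lipoyl enzyme Lipt2 (1.03, adjusted p 0.0329; 0.109 without G4314, 0.062 without G9351, 0.0646 without G9488 and 0.0725 without G9529).

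Among SREBP processing and lipogenic regulators, 2 were higher and 1 lower of 32 tested, with a median of -0.07, close to that of all genes. These counts lie below the shares of all genes tested, 15.3% higher and 15.6% lower. Mbtps2, the site-2 protease that frees SREBP from the membrane, rose by 0.94 (SE 0.12, adjusted p 0.00376). Insig2, which holds SREBP in the endoplasmic reticulum, was at 33.5 ± 5.04 CPM on and 57.5 ± 7.76 CPM off (SD, n = 5 lines each) and fell by 0.78 (SE 0.15, adjusted p 0.0114), with no overlap of the conditions. Mbtps2 and Insig2 were called with each line left out. The site-1 protease gene Mbtps1, read after its value was seen, was lower in all 5 lines but not called (log2 change -0.33, SE 0.12, adjusted p 0.0812). Prkaa2, a catalytic subunit of AMPK, the kinase that inhibits acetyl-CoA carboxylase, rose by 0.83 (SE 0.18, adjusted p 0.0159), a call lost without G4314 (0.0663) or G9351 (0.0669). Insig1 was not called (log2 change 0.44, adjusted p 0.181) but was without G9577 (0.013). The SREBP escort Scap (-0.09, adjusted p 0.672), the glucose-responsive factor Mlxipl (0.43, adjusted p 0.555) and the lipogenic protein gene Thrsp (0.08, adjusted p 0.839) were not called. Without G9577 the list had 6 higher and 2 lower.

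Sterol synthesis and uptake genes, the usual targets of SREBP2, had 9 higher and none lower of 17 tested in edgeR's fit, median 0.59, with 0 lower at an unadjusted p under 0.05 and 0 lower in DESeq2. Fdps, which makes farnesyl diphosphate, rose by 1.08 (SE 0.17, adjusted p 0.00657), and Lss, which closes the sterol rings, by 0.67 (SE 0.12, adjusted p 0.00881), both called with each line left out in turn. Mvd, an enzyme of the mevalonate route, rose by 0.81 (SE 0.17, adjusted p 0.0141; 0.0582 without G4314 and 0.0539 without G9351). Lss shares 381 exon bases with 4930483K19Rik. The count of 9 fell to 3 without G4314, 3 without G9351 and 5 without G9529, and was 9 without G9577. Over all genes, 1969 were called higher with all lines, and 852, 813, 1468 and 2244 in these fits.

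For activation and uptake of ready-made fatty acids, the lists were small. Acyl-CoA synthetases and thioesterases had 2 higher and none lower of 13 in edgeR's fit, median -0.03, with 1 lower at an unadjusted p under 0.05 and 1 lower in DESeq2. Those higher were Acsl5 (log2 change 0.84, adjusted p 0.027; 0.0929 without G4314, 0.068 without G9351 and 0.0505 without G9529) and the acyl-CoA binding protein Dbi (0.79, adjusted p 0.0449; 0.129 without G4314, 0.134 without G9351, 0.0621 without G9488 and 0.0871 without G9529). Uptake and binding genes had 2 higher and 2 lower of 9, median 0.97. The gene at this median, Lpl, read after its value was seen, was not called (SE 0.44, adjusted p 0.132). Mfsd2a, a carrier of lysophospholipids, was at 23.7 ± 9.62 CPM on and 4.3 ± 3.8 CPM off (SD, n = 5 lines each) and rose by 2.75 (SE 0.61, adjusted p 0.0167; 0.0591 without G9351). Lrp8, a lipoprotein receptor, rose by 1.25 (SE 0.18, adjusted p 0.0051), called with each line left out. The fatty acid transporter Slc27a1 fell by 1.64 (SE 0.41, adjusted p 0.025; 0.0761 without G4314 and 0.0564 without G9351). Slc27a4 fell by 0.49 (SE 0.13, adjusted p 0.0263; 0.0929 without G4314, 0.103 without G9351, 0.0919 without G9488 and 0.0523 without G9529).

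Genes that place fatty acids into glycerolipids had 4 higher and 5 lower of 30 tested and a median of -0.01. These counts lie near the shares of all genes tested, 15.3% higher and 15.6% lower. The acyltransferase Agpat5 rose by 1.08 (SE 0.17, adjusted p 0.0063) and Pemt, which makes phosphatidylcholine, by 1.30 (SE 0.26, adjusted p 0.0122). The phosphatidate phosphatase Lpin2 fell by 0.73 (SE 0.14, adjusted p 0.0108). These 3 were called with each line left out, unlike the acyltransferase Agpat4, which fell by 0.74 (SE 0.17, adjusted p 0.017; 0.0559 without G4314 and 0.0653 without G9351). The counts of this list were 3 higher and 1 lower without G4314, 2 and 1 without G9351, 2 and 2 without G9488, and 2 and 4 without G9529. Over all genes these fits called 852 higher and 916 lower, 813 and 916, 1447 and 1280, and 1468 and 1604. With all lines, 1969 genes were called higher and 2004 lower.

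Lipolysis and beta-oxidation, the reverse route, had 1 higher and 7 lower of 33 tested, with a median of -0.29. The count of 7 was 3 without G4314, 4 without G9351 and 12 in DESeq2. Over all genes, 2004 were called lower in the main fit, and 916, 916 and 2997 in these 3 fits. The 1 higher, Hadh, an enzyme of mitochondrial oxidation (log2 change 0.45, adjusted p 0.0307), lost its call without G4314 (0.0695), G9351 (0.116), G9488 (0.063) or G9529 (0.0805), and also when low counts were not filtered out. Acaa1b, a peroxisomal thiolase, was at 3 ± 2.34 CPM on and 8.64 ± 5.77 CPM off (SD, n = 5 lines each) and fell by 1.56 (SE 0.26, adjusted p 0.00747), called with each line left out. Its neighbour Acaa1a fell by 0.79 (SE 0.17, adjusted p 0.0142; 0.0533 without G4314 and 0.0556 without G9351), and the lipid-sensing receptor Ppard by 0.64 (SE 0.13, adjusted p 0.0141; 0.0536 without G4314 and 0.0519 without G9351). Cpt1a, which admits fatty acids to mitochondria and is inhibited by malonyl-CoA, ranged from 5.82 to 66 CPM on, with a median of 7.53, and from 22 to 204.3 CPM off, with a median of 52.2. Its changes by line, -4.96, -3.39, -2.03, -0.51 and 0.34, spanned a wide range, and the fitted -2.06 (SE 0.81) was not called (adjusted p 0.0901); without G9577 it was called (adjusted p 0.0233). Without G9577, 17.4% of 12925 genes were called higher and 17.4% lower. In that fit NADPH supply had 8 higher, acyl-CoA synthetases and thioesterases 3, and uptake and binding 3.

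**Figure D4:**
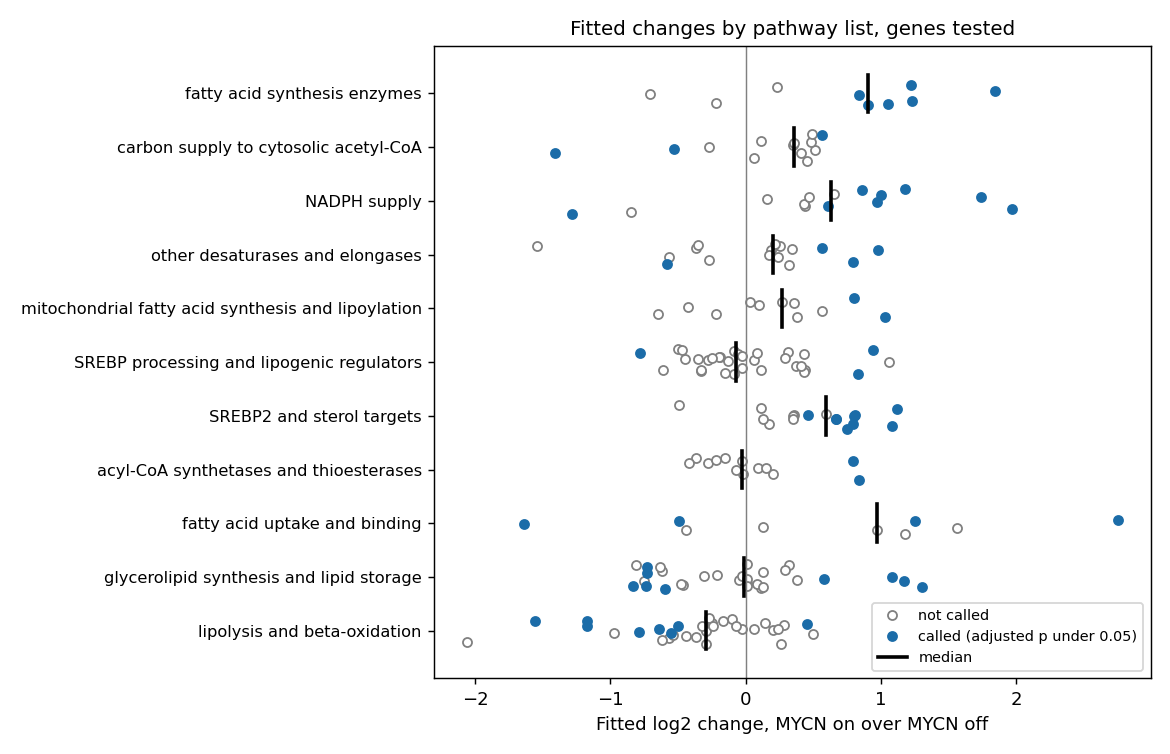
Fitted log2 change, MYCN on over MYCN off, of each gene tested in the 9 genes (top row) and in the 10 lists (rows below), 1 point per gene, filled where the adjusted p is under 0.05, with the median of the row as a bar. Medians run from 0.97 for uptake (9 genes tested, 2 called higher and 2 lower) and 0.90 for the 9 genes to -0.29 for lipolysis and beta-oxidation. The gene at the uptake median was not called.

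Genes with a pattern most like Fasn and Scd2 were sought over the 10 libraries after removing each line's mean, which leaves 5 on-off pairs, so each correlation is a description. Nearest to Fasn were Psmc5 (r above 0.999), Nol11 (r 0.999) and Psmc4 (r 0.999), which rose by 0.66, 0.94 and 0.61 on the log2 scale. Their rise was largest in G9577, by 1.41, 2.05 and 1.32, which follows from choosing them by likeness to Fasn. Nearest to Scd2 were Gyk (r 0.996), Asnsd1 (0.990) and Dhcr7 (0.990), which rose by 1.08, 0.75 and 0.79. Their rise was largest in G9351, by 1.90, 1.36 and 1.27, which likewise follows from the choice.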

How the data were processed

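RNA was sequenced from 5 mouse tumour cell lines with MYCN on and with MYCN off, 1 library for each line and condition (10 libraries). Libraries of oligo-dT-selected RNA were prepared with NEBNext Ultra reagents, which keep no strand, per the labels' protocols. The submitters' processing notes name bcl2fastq 1.8.4, STAR 2.5.2a and the build mm9. The authors deposited raw read counts per gene, made by featureCounts 1.6.0 per the file headers, without strand and with no option that would count reads mapping to several places. Such reads are missing from genes with near-identical copies. Whether a Mycn read came from the transgene cannot be told.

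From these counts, genes with low values in most libraries were removed (edgeR filterByExpr, minimum count 10). This left 12835 genes, and all 9 members passed. Genes high in few libraries were thus not tested either. Among them were Mgll (MYCN-off median 0.264 CPM, highest 207.3 CPM) and Plin3 (0.196 and 195.3 CPM). The filter kept 93.9% of counts in the MYCN-off library of G9577 and 98.1% in its MYCN-on library, and CPM refers to the kept counts. edgeR 4.0.16 in R 4.3.3 fitted a quasi-likelihood model with line as a block and TMM scaling. Its two-sided F test was adjusted by Benjamini-Hochberg over all genes tested, with a threshold of 0.05. A gene is called higher or lower past that threshold, and every adjusted p comes from this test unless another is named. Log2 changes are MYCN on over MYCN off, with SE, and the changes of single lines use a prior count of 2. CPM is scaled by TMM factors, and RPKM divides it by the exon length in the files. The fit had 4 residual degrees of freedom and a biological coefficient of variation of 28.5%. Python 3.11.15 with Biopython 1.88 read the sequences.

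The labels pair the libraries by line, and this was checked: deviations from the condition means correlated with r of 0.721 to 0.873 within a line and at most 0.273 between lines. P-values rest on 5 lines with 1 culture of each line in a condition. Alternatives were a fit without the block, DESeq2 1.42.0, RLE scaling, library size alone, no filter on low counts, and each line left out. The members, the 10 lists, the marker lists and the tests were chosen with earlier results of these data known. The text names all 9 members, up to 4 genes per list with the smallest p among those past the threshold, 15 genes set by name, and the 3 genes most like Fasn and Scd2 among those with a mean CPM of at least 5; a few genes that this rule names are not reported here. Coordinates of genes are mm9 as in the files, and promoter windows are GRCm38.p6.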

Additional observations from a re-analysis of the deposited data

Results flagged for a closer look

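In 4 of 27 groups of 5 values (9 genes; on levels, off levels and changes by line), 1 value lay far from the rest, with a gap to its nearest neighbour above 0.71 of the group's range. For independent, normally distributed values, chance gives this in about 1 in 20 groups. The 27 groups share libraries and lines, so this rate need not hold for them. For Scd1, G9577 stood out with MYCN on at 189.6 CPM (gap 0.742 of the range) and with MYCN off at 241.6 CPM (0.979). G9577 also stood out for Me1 with MYCN on, at 125.6 CPM (0.821). For Elovl6, the log2 change of 1.38 in G4314 was apart from the other lines (0.714).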

How the results depend on the processing

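Of 90 values of single members under the alternatives, 75 kept direction and side of the threshold, 10 lost their call, 4 gained one (all Acss2) and 1 changed sign: Me1, at 0.08 without the replicate block. With no replicate block, 215 genes were called higher and 59 lower, and 2 of the 9 members were called higher; Acaca (adjusted p 0.0525), Scd2 (0.0525), Fasn (0.0764) and Scd1 (log2 change 0.15, adjusted p 0.966) lost their calls. Of the 10 lists, NADPH supply then had 1 call and SREBP regulators 1, both higher. Members called higher were 6 under DESeq2, RLE scaling, library size alone and no filter, and 4 to 6 with each line left out. Members called lower were 1 under DESeq2, RLE scaling and library size alone, and 0 to 1 with each line left out. With each line left out, 813 (without G9351) to 2244 (without G9577) genes were called higher and 916 (without G4314, and without G9351) to 2249 (without G9577) lower; 852 were higher without G4314 and 1280 lower without G9488. The log2 ratio of Scd2 over Scd1, on minus off, was -1.26 to -0.53 with each line left out; without the replicate block it was -0.83 (exact permutation p 0.595). The median log2 change of all genes was -0.085, between -0.117 and -0.093 under the other scalings, and -0.239 with no filter. Counting error is small for the members, and the spread between 5 lines sets the precision; Scd1 rests on 19 to 70 counts in the MYCN-off libraries of the 4 lines other than G9577.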
